A study of Mus musculus with 12 samples.

Results

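The 39 genes described here are Trp53, which encodes the transcription factor p53, and known p53 target genes, chosen by gene name, with no measured value in the rule. Each name matched exactly 1 of the 29549 genes in the deposited FPKM table. They were measured in 12 RNA-seq libraries of 4 groups with 3 libraries each. The groups are sgRnf19a_IR (the Rnf19a guide and 24 h of a treatment that the labels call IR and do not spell out), control_IR (the control guide sgNC and the same treatment), sgRnf19a (the Rnf19a guide, untreated) and control (sgNC, untreated). All 4 groups carry a guide and are labelled B16F10, a transplantable mouse melanoma line, and the labels speak of Rnf19a deficient cells. Rnf19a encodes an E3 ubiquitin ligase of the RING-between-RING (RBR) class. Whether the guided cells were 1 clone or a pool is not given in the sources used here, nor whether separate cultures were used for the 3 libraries of each group. The p-values therefore rest on library-to-library spread, part of which may be technical.

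p53 is a DNA-binding transcription factor that is kept low by the ubiquitin ligase Mdm2 and is stabilised, mostly at the protein level, when DNA is damaged. It then binds pairs of a short sequence called the p53 half-site and raises genes that stop the cell cycle, trigger apoptosis, repair DNA or alter metabolism. Several of its targets, Mdm2 and the phosphatase gene Ppm1d among them, act back on p53 and shut the response down. In the deposited table Trp53 (ENSMUSG00000059552) spans chromosome 11, 69580359 to 69591873 (mm10, plus strand), Mdm2 (ENSMUSG00000020184) chromosome 10, 117688875 to 117710758 (minus strand), and Cdkn1a (ENSMUSG00000023067) chromosome 17, 29090976 to 29100727 (plus strand).

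The libraries differed in ways that touch every value below. Deposited counts summed to 34.3 to 45.6 M in IR-treated and 62.7 to 71.3 M in untreated libraries. From how often the value 4 occurs, 1 read pair was taken as worth about 4 counts. Counts of rRNA genes made up 11.3% to 22.1% of IR-treated and 0.223% to 0.696% of untreated libraries. Long transcripts (over 6000 bases) were depleted against short ones (under 1000 bases) after IR. The median log2 level of long minus short transcripts was 0.37 ± 0.73 in sgRnf19a_IR, -0.56 ± 0.14 in control_IR, 2.91 ± 0.11 in sgRnf19a and 2.28 ± 0.39 in control (SD, n = 3 each). Library sgRnf19a_IR 4 stood apart from its group: on the first principal component (46.9% of variance) it lay at -42.1, with the untreated libraries (-104 to -31.2), while the other IR-treated libraries lay at 51 to 135. Results that rest on it are given with and without it, and all comparisons were refitted with splines on the length and GC content of transcripts ("corrected" below). With the correction the median of all genes moved by more than 0.1 with IR in control cells alone, to -0.18 against -0.02. The part of these library differences in the results was not tested beyond that. The level of Rnf19a RNA did not mark the guide: it was 18.1, 11.6 and 37.7 CPM (counts relative to the TMM-scaled library total) in sgRnf19a_IR against 4.37, 8.06 and 5.39 in control_IR, and 27.5, 25.6 and 22.6 CPM in sgRnf19a against 33.5, 29.4 and 21.5 in control. A guide that cuts DNA need not lower the RNA of its gene. The melanoma label was not borne out by markers: 4 of 8 melanocyte genes had any count, Tyr, Tyrp1, Mlana and Slc45a2 were at 0 in all libraries, and the list summed to 3.73 to 10.5 CPM in sgRnf19a_IR, 2.29 to 3.09 in control_IR, 15.8 to 16.4 in sgRnf19a and 9.53 to 13.8 in control. Nearly all of the melanocyte sum was Mitf, at group means of 6.68, 2.53, 15.9 and 11.4 CPM in the same order of groups. The simple epithelium list, nearly all of it Krt8, Krt18 and Krt19, summed to 394 to 684, 1040 to 1220, 559 to 572 and 658 to 830 CPM in the same order of groups. Its other genes were near 0, Epcam at group means of 0.829 to 1.52 CPM and Cdh1 at 0.0382 to 0.0605 CPM. The 5 fibroblast genes summed to 99.9 to 202 CPM in sgRnf19a_IR against 396 to 426 in control_IR, and to 57.2 to 144 CPM in sgRnf19a against 470 to 503 in control. Leukocyte genes (4 of 5 with a count) summed to 0.617 to 42.2 CPM and endothelial genes (3 of 3) to 0.792 to 5.66 CPM over all libraries. Among fibroblast genes it was Col3a1 that differed most, at a mean of 52.1 CPM in sgRnf19a_IR against 347 in control_IR and 30 in sgRnf19a against 418 in control. Col1a1 averaged 67.6 CPM in sgRnf19a_IR against 54.4 in control_IR and 42.5 in sgRnf19a against 54.3 in control, and Col1a2 26.2 CPM in sgRnf19a_IR against 9.84 in control_IR. The fibroblast sum, through Col3a1, and the simple epithelium sum were lower with the guide with no overlap of libraries, and their part in the guide results was not tested.

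Promoter matches to the sequence that p53 binds are shown first, although most of the genes searched had no full site there. Promoter windows from 250 bases before to 50 after each annotated gene start (RefSeq, GRCm38.p6) were given for 31 of the 39 genes. They were searched for the p53 half-site consensus of 10 bases, which is its own reverse complement, so that both strands are covered, and for full sites of 2 half-sites with a spacer of up to 13 bases. A perfect half-site was in a window of 12 of the 31 genes (38.7%), against 9.55% of the 27025 genes with a window. A full site with up to 2 mismatches over its 20 positions was in a window of 9 of the 31 genes (29.0%), against 11.5% of all genes, and with up to 1 mismatch in 4, against 1.24%. Cdkn1a was the 1 member with a perfect full site, which 20 genes of all carried. In the windows below, given 5′ to 3′ on the gene's strand up to the gene start, capitals mark the half-sites of the best pair.
Cdkn1a, chr17:29090729-29090978, plus strand: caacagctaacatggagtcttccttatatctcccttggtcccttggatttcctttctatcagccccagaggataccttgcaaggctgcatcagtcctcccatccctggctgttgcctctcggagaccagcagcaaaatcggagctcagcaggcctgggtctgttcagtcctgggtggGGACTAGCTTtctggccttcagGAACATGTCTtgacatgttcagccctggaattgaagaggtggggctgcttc
Ccng1, chr11:40755287-40755536, minus strand: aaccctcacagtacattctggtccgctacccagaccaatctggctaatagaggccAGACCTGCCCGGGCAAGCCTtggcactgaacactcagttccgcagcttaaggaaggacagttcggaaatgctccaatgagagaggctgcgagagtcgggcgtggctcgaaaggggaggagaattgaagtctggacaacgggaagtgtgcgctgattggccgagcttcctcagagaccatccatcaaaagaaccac
Bax, chr7:45466899-45467148, minus strand: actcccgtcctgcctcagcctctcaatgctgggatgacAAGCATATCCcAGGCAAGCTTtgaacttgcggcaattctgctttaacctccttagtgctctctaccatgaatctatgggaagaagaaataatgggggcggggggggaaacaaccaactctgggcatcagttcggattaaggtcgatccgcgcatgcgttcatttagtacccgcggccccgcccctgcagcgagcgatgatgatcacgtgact
Cdkn1a has 2 annotated starts, and the window shown is that of the upstream one. The window of the other start (chr17:29093519-29093818) holds no perfect half-site and no pair with fewer than 5 mismatches. The perfect Cdkn1a pair has a spacer of 12 bases and begins 73 bases before the upstream start. Its second half-site also forms a pair with no spacer and 1 mismatch, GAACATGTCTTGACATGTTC. The pairs of Ccng1 and Bax have 1 mismatch each, with spacers of 0 and 1. The remaining full sites show how much looser the match becomes, with capitals again for the half-sites.
Polk (1 mismatch): GAACTAGCCTcAAACTTATTC
Ckap2 (2 mismatches): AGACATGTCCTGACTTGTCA
Sesn1 (2 mismatches): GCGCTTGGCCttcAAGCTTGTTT
Aen (2 mismatches): GGGCTTGTCCgggcaagGAGCTTCCGC
Zfp365 (2 mismatches): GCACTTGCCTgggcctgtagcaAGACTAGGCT
Gpx1 (2 mismatches): AGACTAGTGCtacagGAGCTAGACC
A match is a run of letters in this window, not a measured binding site. The genes with a full site did not move as a block: with IR in control cells Cdkn1a, Bax, Aen and Gpx1 rose and Ccng1, Polk, Ckap2 and Zfp365 fell, with values below.

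In untreated control cells the members spanned a wide range of FPKM, a level per transcript length. The highest were Gpx1, a glutathione peroxidase gene, at 112 ± 28.1 FPKM, Trp53 at 89.8 ± 8.54, Ccng1 (cyclin G1) at 66.9 ± 3.21, Cdkn1a at 52.3 ± 5.07 and Bax at 36.1 ± 11.5 (SD, n = 3 each). The SDs of Gpx1 and Trp53 overlap, as do those of Cdkn1a and Bax. At the low end, the death receptor gene Fas was at 0.454 ± 0.0903, the desmosomal gene Perp at 0.0457 ± 0.017 and Ddit4l at 0.0056 ± 0.0097 FPKM. Ddit4l had counts of 0 in all sgRnf19a_IR libraries and did not pass the filter on low counts, so that 38 of the 39 genes were tested. Fas and Perp rest on few read pairs, and neither was called in any comparison by edgeR without correction. Fas with IR in sgRnf19a cells was called higher after correction (2.22, adjusted p = 0.0492) and by DESeq2 (adjusted p = 0.00805). DESeq2 also called Fas lower with the guide in untreated cells (adjusted p = 0.0224), where edgeR gave -2.25. For 9 genes, among them Cdkn1a, Polk, Ddb2 and Rrm2b, an annotated gene lies on the opposite strand, and whether counting used strand is not stated, so their counts may hold reads of that gene.

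**Figure D1:**
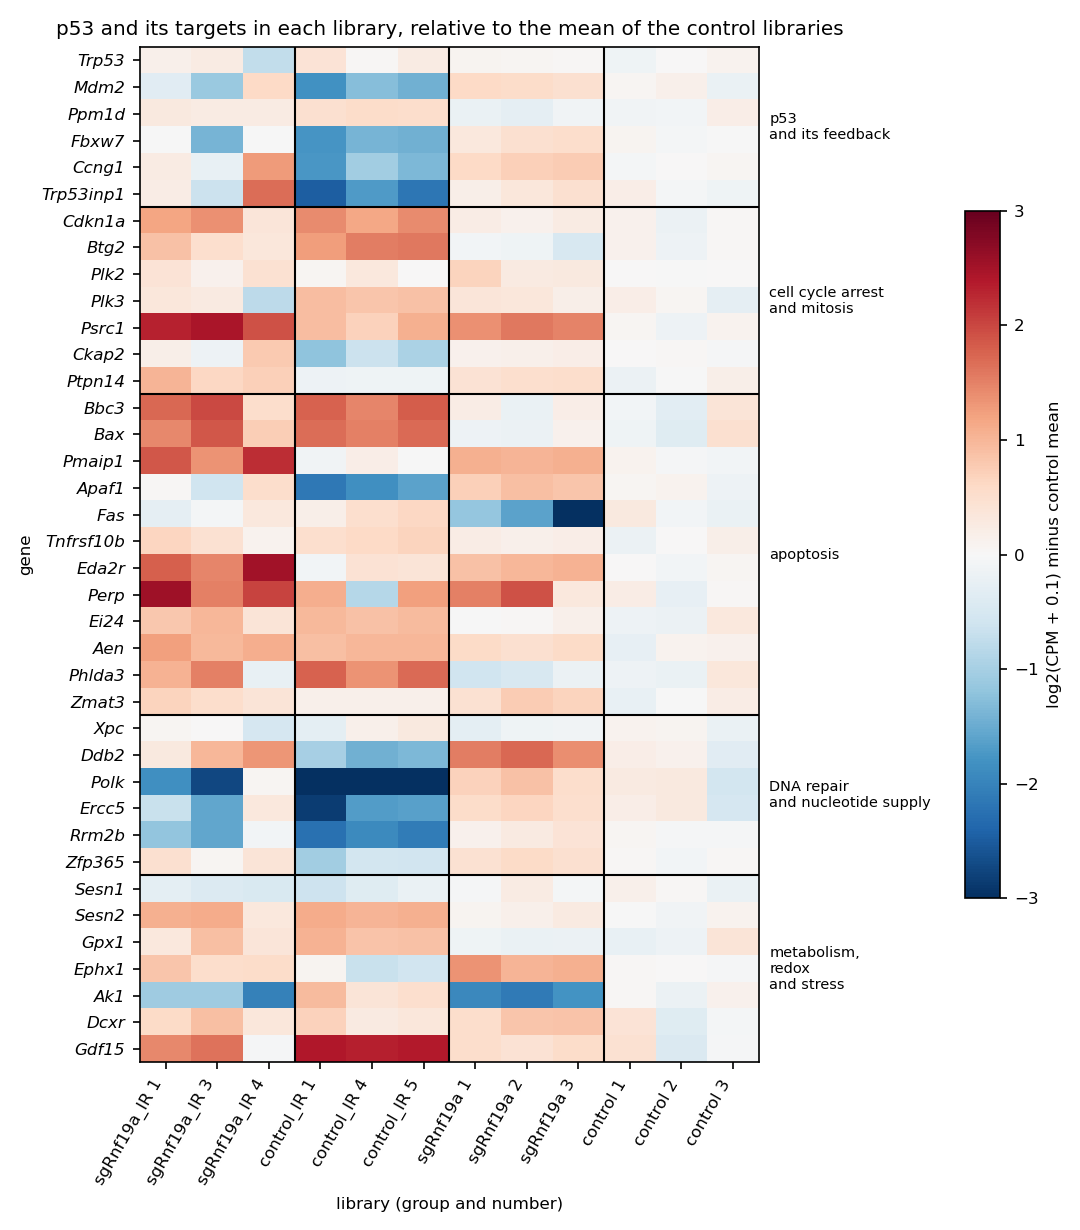
Heat map of the 38 tested genes (rows, grouped by role) in the 12 libraries (columns, by group and library number); colour is log2(CPM + 0.1) minus the mean of the control libraries. Polk, Rrm2b and Trp53inp1 are blue in all 3 control_IR libraries, Psrc1 and Ddb2 are red in the untreated sgRnf19a libraries, and sgRnf19a_IR 4 is paler than its group for Bax, Phlda3 and Gdf15. Fas and Perp are strongly coloured on very few counts.

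The first comparison asks how the p53 genes of control cells stood 24 h into IR. Of 38 genes, 14 rose and 11 fell in control_IR (edgeR, adjusted p under 0.05), against 22.2% of all 18183 genes tested higher and 25.7% lower. In 16 genes every control_IR library was above every control library and in 12 below, as in 30% and 32.1% of all genes. The members' median log2 fold change was 0.25, against -0.02 over all genes. Of the 14 rises, 13 were in the 7 arrest, 12 apoptosis and 7 tested stress genes, while the 6 repair genes contributed falls only. Trp53 itself had 430, 332 and 381 CPM in control_IR against 295, 328 and 348 in control. Its libraries overlapped, and the log2 fold change was 0.24 ± 0.22 (SE, adjusted p = 0.398), or -0.18 after correction (adjusted p = 0.321). Mdm2, the chief brake on p53, had 22.0, 32.4 and 28.7 CPM in control_IR against 82.0, 86.4 and 67.7 in control. It fell by 1.51 ± 0.33 on the log2 scale (adjusted p = 0.00269), with a corrected value of -1.27. Of the other feedback genes, Ppm1d rose (0.52), while Fbxw7, the substrate receptor of a ubiquitin ligase, and Ccng1 fell (-1.54 and -1.35). Trp53inp1, a stress gene whose protein works with p53, had 5.72, 9.87 and 7.11 CPM in control_IR against 37.0, 31.0 and 29.3 in control. It fell by 2.10 ± 0.46 (adjusted p = 0.00254). Its corrected value of -0.57 no longer passed (adjusted p = 0.0912), nor did that of Ccng1, -0.42 (adjusted p = 0.0523).

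Of 7 arrest genes 4 rose with IR in control cells, against 22.2% of all genes, and Ckap2, a spindle protein gene, fell (-0.92). Cdkn1a, which encodes the cyclin-dependent kinase inhibitor p21, had 444, 371 and 442 CPM in control_IR against 181, 146 and 170 in control. Every IR-treated library was above every untreated one. Cdkn1a rose by 1.34 ± 0.21 (adjusted p = 0.000348), and by 0.73 after correction (adjusted p = 0.00068). The antiproliferative gene Btg2 rose by 1.46, the kinase gene Plk3 by 0.87 and the spindle gene Psrc1 by 0.90. The Plk3 rise was 0.15 after correction (adjusted p = 0.475), whereas Btg2 and Psrc1 still passed at 1.23 and 0.38. Plk2 (0.13) and Ptpn14 (-0.14), a phosphatase gene, did not pass, and Ptpn14 was called higher after correction (0.39, adjusted p = 0.023).

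Among 12 apoptosis genes 6 rose and 1 fell, against 22.2% and 25.7% of all genes. Bbc3, which encodes the BH3-only protein Puma, had 18, 14.6 and 18.6 CPM in control_IR against 4.95, 4.17 and 6.85 in control. It rose by 1.68 ± 0.33 (adjusted p = 0.00116), with 0.49 left after correction (adjusted p = 0.0474). Bax, whose protein permeabilises the outer mitochondrial membrane, had 158, 141 and 160 CPM in control_IR against 45.1, 38.3 and 68.7 in control. Phlda3, a repressor of Akt signalling, had 75.0, 55.9 and 71.0 CPM in control_IR against 19.8, 19.2 and 27.9 in control. For both genes the groups did not overlap. Both rose by 1.59 (SE 0.27, adjusted p = 0.000516 for Bax; SE 0.35, adjusted p = 0.00236 for Phlda3). Neither passed after correction, at 0.27 (adjusted p = 0.092) for Bax and 0.43 (adjusted p = 0.0738) for Phlda3. The TRAIL receptor gene Tnfrsf10b, Ei24 and the nuclease gene Aen rose by 0.59 to 0.96 and passed with the correction as well. Apaf1, the scaffold of the apoptosome, was the 1 apoptosis gene that fell (-1.86, and -0.97 corrected). Pmaip1 (Noxa), the death receptor gene Eda2r and Zmat3, an RNA-binding zinc-finger gene, lay at 0.03 to 0.26 without a call and were called higher after correction, at 0.72, 1.46 and 0.94.

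DNA repair and nucleotide supply genes fell, 5 of 6 against 25.7% of all genes, with a median of -1.66 (-0.90 corrected). Polk, a translesion DNA polymerase gene, had 2.41, 3.41 and 3.27 CPM in control_IR against 38.3, 38.6 and 21.4 in control. It fell by 3.43 ± 0.59 (adjusted p = 0.000541), the largest change of any member with IR in control cells, with a corrected value of -2.40. Rrm2b, the p53-inducible subunit of ribonucleotide reductase, had 4.3, 5.45 and 4.75 CPM in control_IR against 21.7, 20.2 and 20.2 in control. It fell by 2.10 ± 0.31 (adjusted p = 0.000235), with a corrected value of -0.79 (adjusted p = 0.000777). Ercc5, the 3′ endonuclease of nucleotide excision repair, had 2.24, 5.22 and 5.42 CPM in control_IR against 19.4, 20.8 and 11.9 in control. The groups were apart in all 3 genes. Ercc5 fell by 2.01 ± 0.44 (adjusted p = 0.00258), with a corrected value of -1.67. Ddb2, which recognises ultraviolet damage, fell (-1.30), as did Zfp365 (-0.71), a gene tied to genome stability, and Xpc did not pass (0.07).

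Of 7 tested metabolism, redox and stress genes 3 rose, against 22.2% of all genes. Gdf15, a secreted stress cytokine, had 29.1, 27.7 and 28.8 CPM in control_IR against 7.55, 4.03 and 5.28 in control. It rose by 2.34 ± 0.36 (adjusted p = 0.000264), the largest rise of a member, and by 1.29 after correction (adjusted p = 0.00106). The sestrin gene Sesn2 rose by 1.07 and by 0.48 after correction. Gpx1 rose by 0.91, but its corrected value was -0.12 (adjusted p = 0.557). Sesn1 (-0.39), Ephx1 (-0.37), Ak1 (0.63) and Dcxr (0.43) did not pass, and Sesn1, Ephx1 and Dcxr were called lower after correction (-0.46, -1.02 and -0.81).

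**Figure D2:**
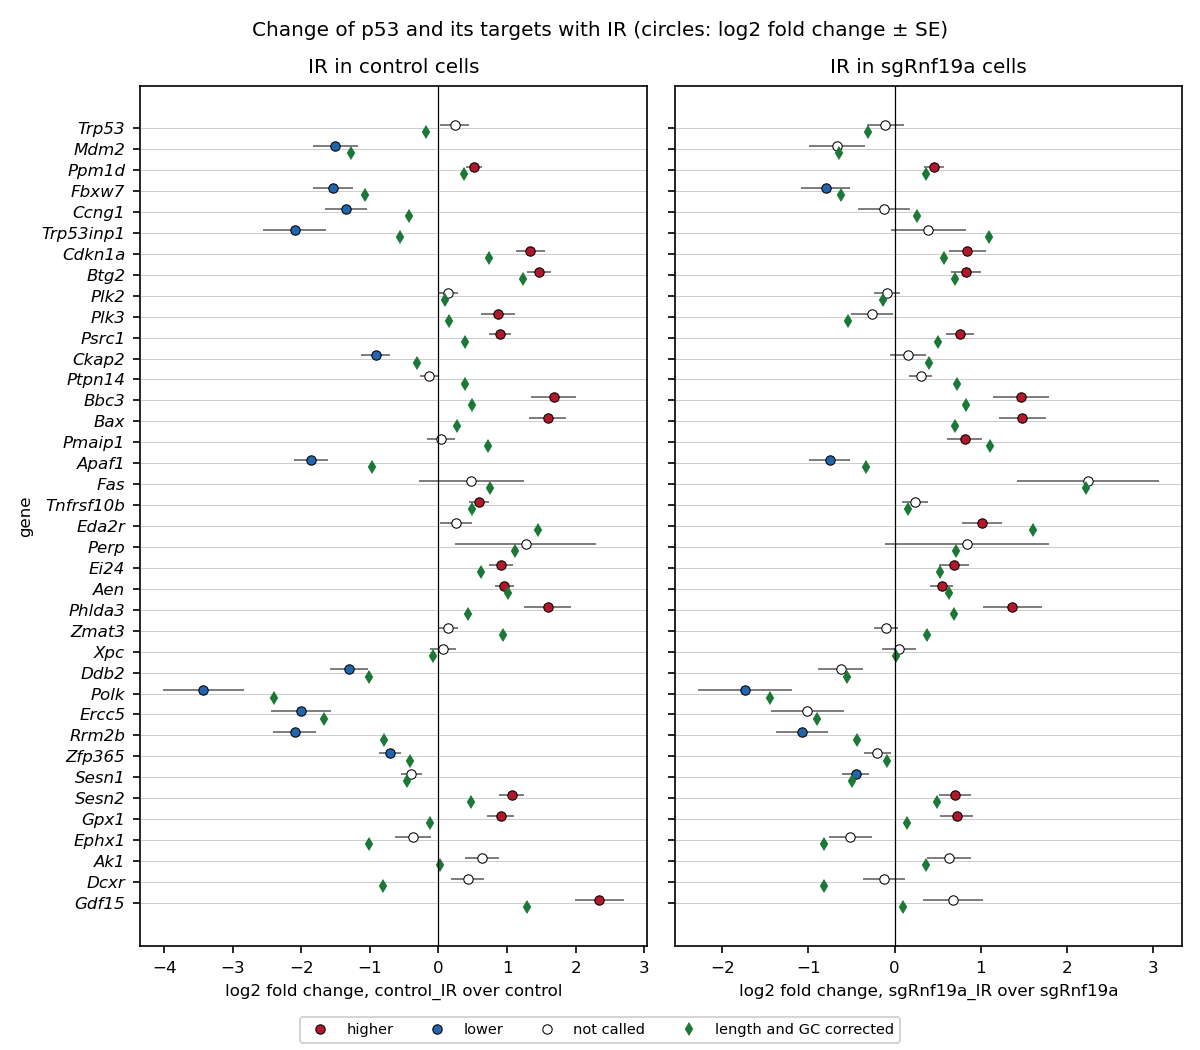
Log2 fold change with IR (x axis) of each tested gene (y axis) in control cells (left) and sgRnf19a cells (right); circles with bars are values ± SE, filled where called (red higher, blue lower), and green diamonds are corrected values. Gdf15, Bbc3, Bax and Phlda3 lie farthest right among called genes in control cells, Polk lies farthest left in both panels, and most diamonds lie nearer 0 than their circles.

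Transcript length and GC content went along with these values. Across the 38 genes, whose longest transcripts span 914 to 10746 bases, the log2 fold change with IR in control cells had a Spearman correlation of -0.60 with length and 0.76 with GC content, given as a description since all points share the same libraries. The figures were -0.45 and 0.43 over 13983 tested protein-coding genes, and -0.17 and 0.27 for the members after correction. With the correction 14 members rose and 12 fell (17.7% and 26.4% of all genes), 10 and 9 of them called the same way without it. On the FPKM scale, where the median of all genes was -0.34 instead of -0.02, 10 of 36 genes were called higher and 14 lower (limma). That stands against 16.6% of all genes tested there higher and 47.4% lower. Higher calls made up 25.9% of all genes called there against 46.3% on counts.

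**Figure D3:**
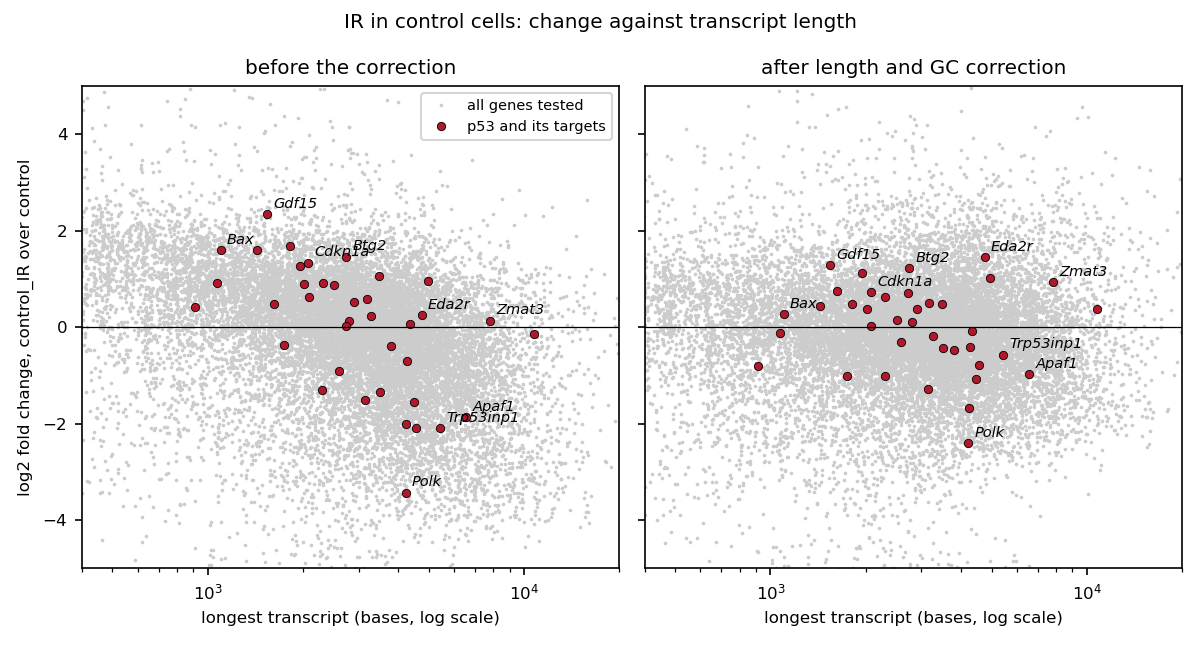
Log2 fold change of control_IR over control (y axis) against the length of the longest transcript (x axis, bases, log scale) before (left) and after (right) correction for length and GC content; grey points are all genes tested, red points p53 and its targets. Before correction short members such as Bax and Gdf15 lie above 0 and longer ones such as Apaf1 and Trp53inp1 below it; afterwards Polk stays at -2.40 and Gdf15 at 1.29, while Bax moves to 0.27.

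In cells with the Rnf19a guide, IR raised 13 of the 38 genes and lowered 5, against 18% and 17.6% of all genes tested. In 14 genes every sgRnf19a_IR library was above every sgRnf19a library and in 8 below, as in 23.2% and 26.6% of all genes. The median was 0.27, against -0.02 over all genes. Without library sgRnf19a_IR 4 the counts were 16 and 8, with 13 and 4 of the original calls among them, while 45.7% of all genes were called, against 35.6% with it. When only these 2 groups were fitted, 10 members were called higher and 0 lower by edgeR, against 15.3% and 10.9% of all genes tested. Fbxw7, Apaf1, Polk, Rrm2b, Sesn1, Cdkn1a, Phlda3 and Sesn2 were then missed, with adjusted p from 0.0503 (Phlda3) to 0.145 (Fbxw7). Trp53 had 358, 386 and 193 CPM in sgRnf19a_IR against 342, 337 and 333 in sgRnf19a. The lowest value was that of library 4, and the log2 fold change was -0.11 ± 0.21 (adjusted p = 0.732). Mdm2 had 62.2, 36.1 and 119 CPM in sgRnf19a_IR against 119, 115 and 110 in sgRnf19a. Libraries 1 and 3 were below all untreated ones and library 4 was level with them. The change of -0.67 ± 0.33 did not pass (adjusted p = 0.136), but without library 4 it was -1.23 and passed (adjusted p = 0.000579). Ppm1d rose by 0.45, and the call was lost without sgRnf19a 2 or sgRnf19a_IR 1 (adjusted p = 0.0533 and 0.0604). Fbxw7 had 16.3, 6.25 and 16.3 CPM in sgRnf19a_IR against 20.8, 23 and 24 in sgRnf19a, and fell by 0.80 ± 0.29 (adjusted p = 0.0468). That call was lost without any 1 of the untreated or control_IR libraries (adjusted p up to 0.114) and after correction (-0.63, adjusted p = 0.0606). Trp53inp1 had 37.4, 20.6 and 103 CPM in sgRnf19a_IR against 36.4, 41.2 and 45.2 in sgRnf19a, with library 4 far above the others, and did not pass (0.39 ± 0.44, adjusted p = 0.529). Its direction turned on that library: it was -0.50 without it (adjusted p = 0.129), and 1.10 after correction with it (adjusted p = 0.00448). Ccng1 was at -0.12 with library 4 and fell without it (-0.66, adjusted p = 0.0119).

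Cdkn1a had 376, 426 and 214 CPM in sgRnf19a_IR against 191, 179 and 196 in sgRnf19a. All IR-treated libraries were above the untreated ones, library 4 by little. Cdkn1a rose by 0.84 ± 0.21 (adjusted p = 0.00926), by 1.08 without library 4 and by 0.57 after correction (adjusted p = 0.00419). Fitted with these 2 groups alone, the adjusted p was 0.0521. Btg2 and Psrc1 rose as well (0.83 and 0.76), so that 3 of 7 arrest genes were called, all higher, against 18% of all genes higher. Ckap2, at 0.16, did not pass, but was called higher after correction (0.40, adjusted p = 0.0136), and Plk3, at -0.26, was then called lower (-0.54, adjusted p = 0.0168).

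Apoptosis genes, the largest role group with 12 of the 38 tested genes, held 7 of the 13 rises. Of all genes tested, 18% were called higher. Bax had 133, 179 and 82.2 CPM in sgRnf19a_IR against 43.9, 43.4 and 53.5 in sgRnf19a. It rose by 1.48 ± 0.27 (adjusted p = 0.00151), and by 0.70 after correction (adjusted p = 0.00106). Bbc3 had 17.4, 20.7 and 7.56 CPM in sgRnf19a_IR against 6.09, 4.49 and 5.99 in sgRnf19a. It rose by 1.46 ± 0.32 (adjusted p = 0.00466), and by 0.83 after correction. Phlda3 had 45.5, 63.2 and 18.8 CPM in sgRnf19a_IR against 14.5, 15.6 and 19.3 in sgRnf19a, so that library 4 lay within the untreated range. It rose by 1.37 ± 0.34 (adjusted p = 0.00926), and by 0.69 after correction. In all 3 genes library 4 was the lowest of its group. Eda2r had 85.3, 67.8 and 141 CPM in sgRnf19a_IR against 45.5, 49.3 and 50.3 in sgRnf19a, with no overlap. Eda2r rose by 1.02 ± 0.23 (adjusted p = 0.0055), by 0.65 without library 4 and by 1.61 after correction. Pmaip1, the BH3-only gene, Ei24 and Aen rose by 0.81, 0.69 and 0.55, and Pmaip1 stood at 1.11 after correction. Apaf1 had 57.9, 37.2 and 81.1 CPM in sgRnf19a_IR against 92.7, 105 and 99.6 in sgRnf19a, all of them lower, and fell by 0.75 ± 0.24 (adjusted p = 0.027). It did not pass after correction (-0.33), nor without sgRnf19a 2 or 3 or sgRnf19a_IR 1 or 3 (-0.71, -0.75, -0.76 and -0.52). The Aen call was lost without sgRnf19a_IR 1 (0.45, adjusted p = 0.0572).

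Polk and Rrm2b were the repair genes that fell. Polk had 8.79, 4.69 and 33.0 CPM in sgRnf19a_IR against 51.0, 58.6 and 45.4 in sgRnf19a. It fell by 1.74 ± 0.54 (adjusted p = 0.0264), with -2.93 without library 4 and -1.44 after correction. The call was lost without sgRnf19a 1, sgRnf19a 2 or sgRnf19a_IR 1 (adjusted p = 0.0525, 0.0699 and 0.103). Rrm2b had 9, 7 and 19.6 CPM in sgRnf19a_IR against 22.5, 25 and 27.4 in sgRnf19a. All treated libraries were lower, library 4 least. It fell by 1.07 ± 0.30 (adjusted p = 0.0157), with -1.65 without library 4 and -0.43 after correction. The call was lost without sgRnf19a 3 (adjusted p = 0.0501) or sgRnf19a_IR 1 (-0.92). Ddb2 (-0.63) and Ercc5 (-1.01) did not pass, but did without library 4, at -0.88 (adjusted p = 0.0128) and -1.62 (adjusted p = 0.00301). Of the stress genes Sesn2 and Gpx1 rose (0.70 and 0.72) and Sesn1 fell (-0.45, adjusted p = 0.0443). Gpx1 was at 0.14 after correction, and Sesn1 was lost without any 1 library but control 3, control_IR 1 and control_IR 5 (adjusted p up to 0.172). Sesn2 was lost without sgRnf19a_IR 1 (0.56) or sgRnf19a_IR 3 (0.55) and Gpx1 without sgRnf19a_IR 3 (0.50). Gdf15 had 14.9, 16.9 and 5.35 CPM in sgRnf19a_IR against 7.82, 7.39 and 8 in sgRnf19a. It was not called (0.68, adjusted p = 0.151), though without library 4 it was (1.03, adjusted p = 0.00133). With the correction, 16 members rose and 6 fell (18.2% and 19.4% of all genes), 12 and 3 of them called before. On the FPKM scale, where the median of all genes was -0.40, 2 of 36 rose and 15 fell (limma), against 14.2% and 49.5% of all genes tested there. Higher calls made up 22.3% of all genes called, against 50.4% on counts.

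Of the genes called in the 2 IR comparisons, 11 were called higher in both (78.6% of those in control cells and 84.6% of those in sgRnf19a cells): Aen, Bax, Bbc3, Btg2, Cdkn1a, Ei24, Gpx1, Phlda3, Ppm1d, Psrc1 and Sesn2. Apaf1, Fbxw7, Polk and Rrm2b were called lower in both (36.4% and 80% of those lists). These 2 comparisons share no libraries. The same overlap was not counted over all genes, so the shares have no background and are not a result about the members. No member was called in opposite directions; after correction 1 was, Ckap2, lower with IR in control cells and higher in sgRnf19a cells.

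**Figure D4:**
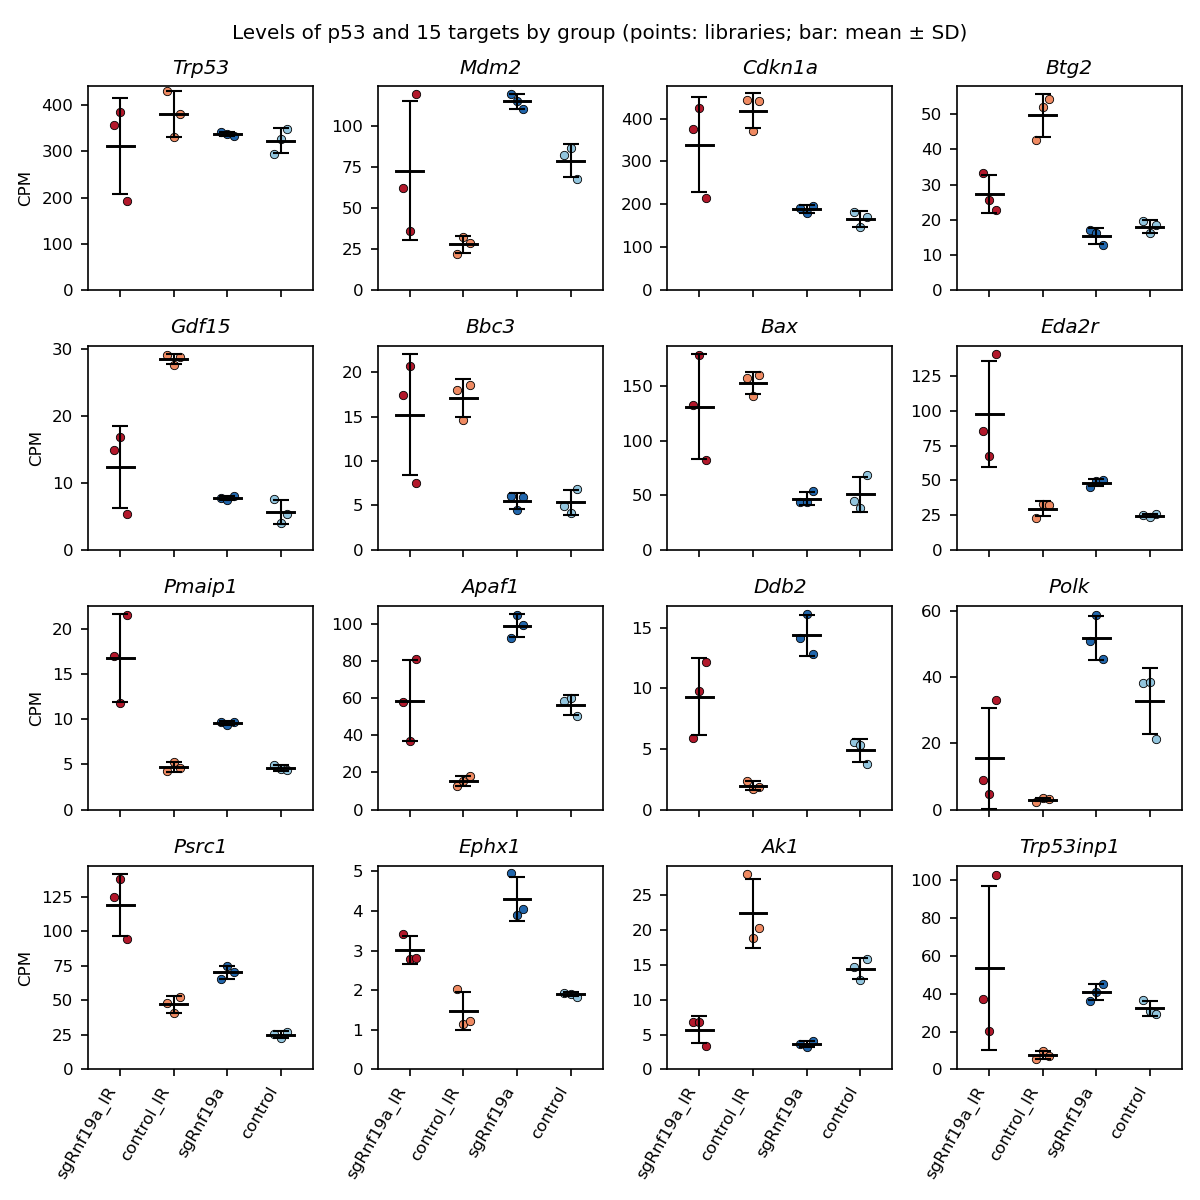
Levels (y axis, CPM, from 0) of Trp53 and 15 targets in the 4 groups (x axis); points are libraries and bars the mean ± SD of 3. Bax, Bbc3 and Cdkn1a are higher with IR under either guide, Psrc1 is higher with the Rnf19a guide with or without IR, Ak1 is lower with it, and for Polk and Trp53inp1 the sgRnf19a_IR points spread most widely for their mean.

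The guide comparison in untreated cells asks how these genes differ between cells with the Rnf19a guide and control cells without IR. In sgRnf19a 7 of 38 genes were called higher and 1 lower, against 3.02% and 3.2% of all genes tested, and the median was 0.38, against 0.03 over all genes. Of the 38 values 30 were above 0, and in 20 genes every sgRnf19a library was above every control library and in 3 below, as in 22.3% and 15.9% of all genes. The 6 feedback genes lay at -0.20 (Ppm1d) to 0.69 (Ccng1) and were not called by edgeR or DESeq2. Trp53 averaged 337 ± 4.47 CPM in sgRnf19a and 324 ± 26.9 CPM in control (SD, n = 3 each), a log2 fold change of 0.06 ± 0.21 (adjusted p = 0.93). Cdkn1a, whose libraries overlapped, did not pass (0.19 ± 0.21, adjusted p = 0.737). Mdm2 had 119, 115 and 110 CPM in sgRnf19a against 82.0, 86.4 and 67.7 in control, without overlap, and did not pass either (0.54 ± 0.32, adjusted p = 0.455).

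Ddb2 had 14.2, 16.1 and 12.8 CPM in sgRnf19a against 5.59, 5.29 and 3.80 in control. It rose by 1.55 ± 0.26 (adjusted p = 0.00348), the largest called rise with the guide, and by 1.42 after correction. Psrc1 had 65.4, 75.1 and 70.4 CPM in sgRnf19a against 26.0, 22.5 and 27.2 in control. It rose by 1.48 ± 0.16 (adjusted p = 0.000155), and by 1.5 after correction. In these 2 genes the groups were far apart. Ephx1, a microsomal epoxide hydrolase gene, had 4.95, 3.91 and 4.06 CPM in sgRnf19a against 1.94, 1.90 and 1.84 in control. Ephx1 rose by 1.18 ± 0.25 (adjusted p = 0.0147), a call lost without sgRnf19a 1, control 1 or control 3 (adjusted p = 0.0676, 0.0582 and 0.0651). Pmaip1 had 9.73, 9.34 and 9.68 CPM in sgRnf19a against 4.95, 4.46 and 4.36 in control. It rose by 1.06 ± 0.20 (adjusted p = 0.00797), and by 0.85 after correction. Eda2r (0.98, adjusted p = 0.0276), Zmat3 (0.62, adjusted p = 0.0221) and Aen (0.54, adjusted p = 0.0325) rose less, and these calls hung on single libraries. Eda2r was lost without any 1 untreated library or sgRnf19a_IR 1 (adjusted p up to 0.0986), and Zmat3 without sgRnf19a 2 or 3, sgRnf19a_IR 1 or control 1 or 2 (up to 0.115). Aen was lost without any 1 library but sgRnf19a_IR 3 and 4 (up to 0.143). All 7 genes were still called after correction.

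Ak1, which encodes a cytosolic adenylate kinase, went the other way. It had 3.71, 3.25 and 4.05 CPM in sgRnf19a against 14.7, 12.8 and 15.8 in control, with no overlap. Ak1 fell by 1.98 ± 0.26 (adjusted p = 0.000531), with a corrected value of -1.88. Apaf1 (0.81, adjusted p = 0.07), Ptpn14 (0.48, adjusted p = 0.0606) and Zfp365 (0.51, adjusted p = 0.0913) did not pass, and together with Sesn2 (0.39) and Dcxr (1.02) they were called after correction, when 12 members were higher and 1 lower (4.88% and 4.64% of all genes). Without library sgRnf19a_IR 4, which is in neither group but enters the estimate of spread, 11 members were called higher and 1 lower, while 11% of all genes were called, against 6.22% with it. Leaving out any 1 untreated library gave 3 or 4 members higher and 1 lower, with 3.52% to 4.98% of all genes called.

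The same question in IR-treated cells gave 16 members higher and 4 lower in sgRnf19a_IR, against 21% and 12.8% of all genes tested. The median was 0.19, against 0.07 over all genes. Without library sgRnf19a_IR 4 the counts were again 16 and 4, with 15 and 4 of the original calls among them, while 25.4% of all genes were called, against 33.8% with it. When only these 2 groups were fitted, 10 members were called higher and 2 lower, against 10.7% and 7.57% of all genes tested. Mdm2, Fbxw7, Polk, Ercc5, Rrm2b, Ephx1, Plk3 and Gdf15 were then missed, with adjusted p from 0.0552 (Polk) to 0.0805 (Ercc5). The control_IR libraries had the lowest level of long against short transcripts. After correction 19 members were higher and 2 lower (18.3% and 10.5% of all genes), 15 and 2 of them called before. In 18 genes every sgRnf19a_IR library was above every control_IR library and in 5 below, as in 23% and 19.5% of all genes. On the FPKM scale 16 of 36 were higher and 4 lower, against 19.9% and 19.3% of all genes tested there. Higher calls made up 50.8% of all genes called, against 62.1% on counts. Trp53 averaged 312 ± 104 CPM in sgRnf19a_IR and 381 ± 49 CPM in control_IR, and did not pass (-0.29 ± 0.22, adjusted p = 0.332). Mdm2 had 62.2, 36.1 and 119 CPM in sgRnf19a_IR against 22.0, 32.4 and 28.7 in control_IR, with no overlap. It was higher by 1.38 ± 0.33 (adjusted p = 0.00852), by 0.83 without library 4 and by 1.07 after correction. Cdkn1a did not pass (-0.31 ± 0.21, adjusted p = 0.293).

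The 6 feedback genes gave 4 of the 16 rises, with 21% of all genes called higher. Trp53inp1 had 37.4, 20.6 and 103 CPM in sgRnf19a_IR against 5.72, 9.87 and 7.11 in control_IR. It was higher by 2.82 ± 0.47 (adjusted p = 0.00146), the largest uncorrected rise in this comparison, by 1.94 without library 4 and by 1.76 after correction. Ccng1 had 250, 179 and 504 CPM in sgRnf19a_IR against 62.6, 102 and 81.5 in control_IR. Every sgRnf19a_IR library was above every control_IR library in both genes. Ccng1 was higher by 1.92 ± 0.31 (adjusted p = 0.00131), by 1.39 without library 4 and by 1.13 after correction. Fbxw7 was higher by 1.19. Of the arrest genes Psrc1, Ckap2 and Ptpn14 were higher by 0.92 to 1.34. Btg2 had 33.3, 25.7 and 22.8 CPM in sgRnf19a_IR against 42.7, 52.2 and 54.3 in control_IR, and fell by 0.87 ± 0.18 (adjusted p = 0.00407), with a corrected value of -0.80. Plk3 had 33.1, 31.7 and 15.2 CPM in sgRnf19a_IR against 50.1, 46.8 and 48.3 in control_IR. It fell by 0.86 ± 0.25 (adjusted p = 0.0191), but not after correction (-0.22, adjusted p = 0.313) or without control_IR 1 or 5 (adjusted p = 0.0593 and 0.0512).

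Apaf1 had 57.9, 37.2 and 81.1 CPM in sgRnf19a_IR against 12.6, 15.6 and 18.3 in control_IR. It was higher by 1.92 ± 0.24 (adjusted p = 0.000261), by 1.62 without library 4 and by 1.4 after correction. Pmaip1 had 17.0, 11.8 and 21.6 CPM in sgRnf19a_IR against 4.22, 5.28 and 4.56 in control_IR, higher by 1.84 ± 0.21 (adjusted p = 0.000118). Eda2r was higher by 1.74. In these 3 apoptosis genes no library of one group lay within the range of the other. Bbc3 (-0.17) and Bax (-0.22) did not pass, but after correction both were called higher (0.73 and 0.68). Among repair genes 5 of 6 were higher, against 21% of all genes. Ddb2 had 5.92, 9.80 and 12.2 CPM in sgRnf19a_IR against 2.38, 1.72 and 1.85 in control_IR. It was higher by 2.23 ± 0.28 (adjusted p = 0.00022), by 1.99 without library 4 and by 1.88 after correction. Polk had 8.79, 4.69 and 33.0 CPM in sgRnf19a_IR against 2.41, 3.41 and 3.27 in control_IR, with library 4 far above the rest. Polk was higher by 2.35 ± 0.57 (adjusted p = 0.00911), by 1.16 without library 4 (adjusted p = 0.0145) and by 1.43 after correction. Rrm2b was higher by 1.30, and by 0.38 after correction (adjusted p = 0.0616). Ercc5 was higher by 1.53 (adjusted p = 0.0194), a call lost without library 4 (0.93, adjusted p = 0.0787) or control_IR 1 (1.22, adjusted p = 0.0757).

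Ak1 again was lower with the guide, at 6.80, 6.83 and 3.43 CPM in sgRnf19a_IR against 28.0, 18.8 and 20.3 in control_IR. It fell by 1.97 ± 0.26 (adjusted p = 0.000329), with -1.71 without library 4 and -1.54 after correction. Ephx1 was higher by 1.04 and by 1.45 after correction. Gdf15 had 14.9, 16.9 and 5.35 CPM in sgRnf19a_IR against 29.1, 27.7 and 28.8 in control_IR. It fell by 1.21 ± 0.35 (adjusted p = 0.0196), with -0.84 without library 4 (adjusted p = 0.0119). The corrected value of -0.45 did not pass (adjusted p = 0.175). The Gdf15 call was also lost without control_IR 1 or 5 (adjusted p = 0.0559 and 0.0509). In both guide comparisons, which share no libraries, Ddb2, Eda2r, Ephx1, Pmaip1 and Psrc1 were called higher (71.4% of the list in untreated and 31.2% of that in IR-treated cells) and Ak1 lower. This overlap was not counted over all genes either, so its shares are not a result about the members.

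**Figure D5:**
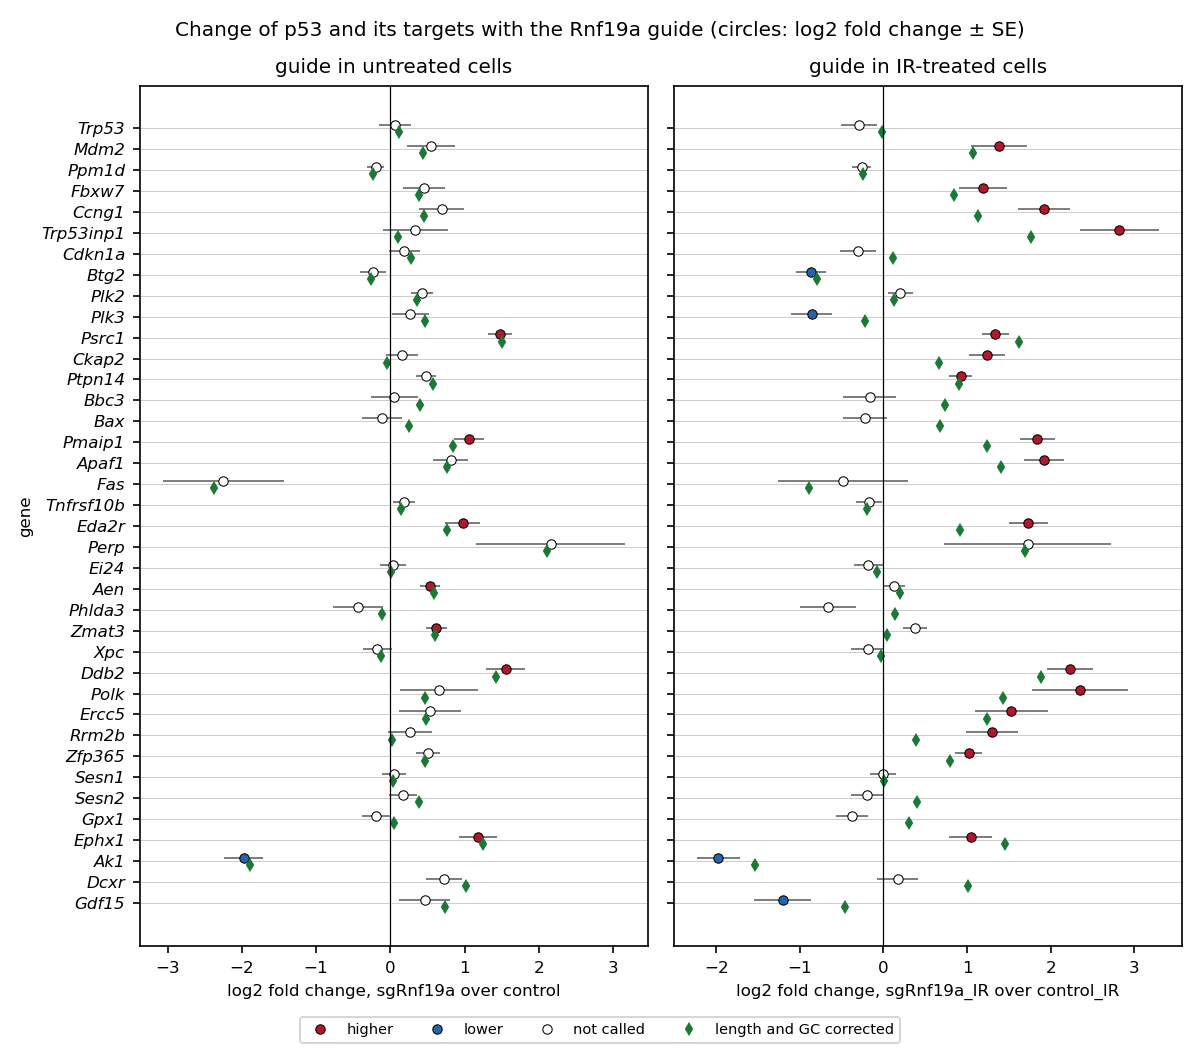
Log2 fold change with the Rnf19a guide (x axis) of each tested gene (y axis) in untreated (left) and IR-treated cells (right); circles with bars are values ± SE, filled where called (red higher, blue lower), and green diamonds are corrected values. Psrc1, Ddb2, Pmaip1, Eda2r and Ephx1 are red and Ak1 is blue in both panels, and Trp53inp1 lies farthest right in IR-treated cells.

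Whether IR acted differently under the 2 guides was tested as the difference between the IR responses (sgRnf19a minus control cells). No member was called by edgeR, against 0.544% of all genes called higher and 0.137% lower. At an unadjusted p under 0.05 there were 14 members, against 21.2% of all genes. DESeq2 called 6, against 9.32% of all genes, higher for Ccng1, Trp53inp1, Ckap2 and Apaf1 and lower for Plk3 and Gdf15. Trp53inp1 had the largest difference, 2.49 ± 0.63 (adjusted p = 0.0889), from a change of -2.10 in control cells and 0.39 in sgRnf19a cells. It passed after correction (1.67, adjusted p = 0.0346), as did Ckap2 (0.70, adjusted p = 0.0374), which makes 2 members, both higher, against 1.99% of all genes higher and 0.661% lower, and it passed without library sgRnf19a_IR 4 (1.61, adjusted p = 0.033). Without that library Gdf15 (-1.30, adjusted p = 0.0371) and Plk3 (-0.85, adjusted p = 0.038) were called lower. Without sgRnf19a_IR 3, by contrast, 10 members were called higher and 2 lower, while 13.4% of all genes were called. Cdkn1a (-0.49 ± 0.30, adjusted p = 0.366), Bax (-0.11 ± 0.38, adjusted p = 0.907) and Bbc3 (-0.22 ± 0.45, adjusted p = 0.835) did not pass, which does not show equal responses. Across the members the difference had a Spearman correlation of -0.75 with GC content before and -0.52 after correction, again a description. Trp53inp1 (38.8% GC) and Ckap2 (42.7%) lie at the low-GC end of the list.

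Genes around p53 were read from 3 lists, whose counts stand beside 22.2% of all genes higher and 25.7% lower with IR in control cells, 18% and 17.6% with IR in sgRnf19a cells, 3.02% and 3.2% with the guide in untreated cells, and 21% and 12.8% with it in IR-treated cells. Of 23 tested upstream kinases and regulators of p53, 2 rose and 15 fell with IR in control cells (median -1.14, and -0.02 over all genes), and 2 rose and 10 fell in sgRnf19a cells (median -0.44). Corrected, the counts were 2 and 15, and 3 and 11. The acetyltransferase gene Ep300 (-1.81) and the deubiquitinase gene Usp7 (-2.01), whose protein stabilises both p53 and Mdm2, fell in control cells. Trp53bp1, a double-strand break repair gene, fell in sgRnf19a cells (-1.48). With the guide, 14 were called in IR-treated cells, all higher (median 0.69), 10 of them also after correction. Without library sgRnf19a_IR 4 the list had 11 called, all higher. Usp7 was higher by 1.10 (0.78 without that library) and the p53 kinase gene Hipk2 by 0.90 (0.76 without it). In untreated cells 1 was called, lower. That gene is Cdkn2a, whose Arf product inhibits Mdm2. Cdkn2a had 0 counts in all 3 sgRnf19a libraries against 13, 19 and 24 in control (edgeR, adjusted p = 0.0455). With its sgRnf19a total set to a floor of 12 counts, taken as 3 read pairs, it was 4.51-fold lower there, a figure that leaves out replicate spread. It had 11, 20 and 8 counts in sgRnf19a_IR against 12, 11 and 0 in control_IR, so these are a handful of read pairs.

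Of further p53 targets, not among the 39 genes, 49 were tested. With IR 10 rose and 12 fell in control cells (median 0.04) and 12 rose and 9 fell in sgRnf19a cells (median 0.18). With the guide 2 rose and 8 fell in untreated cells (median -0.22, against 0.03 over all genes), and 11 were higher and 10 lower in IR-treated cells (median -0.05). The cytokine gene Lif had 152, 136 and 95.6 CPM in sgRnf19a_IR, 47.6, 50.8 and 51.4 in control_IR, 37.8, 36.1 and 39.1 in sgRnf19a and 14.9, 15.9 and 17.4 in control. It rose with IR by 1.64 in control and 1.76 in sgRnf19a cells, and with the guide by 1.23 in untreated and 1.36 in IR-treated cells. Tap1, a peptide transporter gene that interferon also induces, rose with the guide by 2.32 in untreated and 2.60 in IR-treated cells. These 2 genes were the 2 called rises in untreated cells, where 8 genes of the list fell. Among the genes that fell with the guide were Sulf2 in untreated cells (-1.27, and -1.19 corrected) and Zfp385a in IR-treated cells (-2.34, and -1.47 corrected). The sestrin gene Sesn3 had 15.3, 11.8 and 23.2 CPM in sgRnf19a_IR against 14.1, 15.7 and 13.8 in sgRnf19a, and 7.38, 9.98 and 10.8 CPM in control_IR against 55.6, 46.9 and 36.0 in control. It was 1 of 2 genes of this list called for the difference between IR responses (2.5 ± 0.35, adjusted p = 0.0154; 1.89 after correction). The other was the cyclin gene Ccng2 (1.34 ± 0.26, adjusted p = 0.0415), which did not pass after correction (0.85, adjusted p = 0.0571). Of all genes, 0.544% were called higher for this difference and 0.137% lower.

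The 20 cell cycle genes that p53 is known to repress through p21 and the DREAM complex were mixed: 6 rose and 8 fell with IR in control cells (median -0.25), and 4 rose and 8 fell in sgRnf19a cells (median -0.36). The topoisomerase gene Top2a fell by 3.89 in control cells (-2.84 corrected), while Cdca3 rose by 1.16. With the guide 1 was called in untreated cells, Cks2 (-0.87), and 5 were higher and 5 lower in IR-treated cells, or 4 and 3 without library sgRnf19a_IR 4. Top2a had 221, 137 and 830 CPM in sgRnf19a_IR against 79.1, 78.2 and 73.2 in control_IR, with library 4 far above the rest. It was higher by 2.37, and by 1.22 without that library (adjusted p = 0.00332). The checkpoint kinase gene Chek1 was higher by 1.70, and by 0.93 without it (adjusted p = 0.00607).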

How the data were processed

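RNA-seq of 12 libraries in 4 groups of 3 was used. Per the labels' protocols, ribosomal RNA was depleted, libraries were strand-marked with 12 PCR cycles, and read pairs of 37 bp were sequenced. The submitters' processing notes name Bowtie2, HTSeq, DESeq2, mm10 and GRCm39 without versions or roles. Per the file headers, the authors deposited raw counts by Ensembl gene ID and FPKM values by gene name. The deposited counts pile up at 4 (5958 values of 4 in genes over 2 kb, against 989 of 3 and 1000 of 5) and were treated as estimated counts. Higher multiples of 4 were not counted. Another 12 columns, copies of the same counts, stayed out. Untreated columns matched samples by guide and number. IR columns carry a D and numbers (1, 3, 4 with the Rnf19a guide and 1, 4, 5 with sgNC) that are not those of the labels. Their guide names and the lack of any other group for them put them in sgRnf19a_IR and control_IR. Of 29456 gene IDs shared with GENCODE M21, 26714 have its start and end (mm10), as do 36 of the 39 members.

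edgeR 4.0.16 (R 4.3.3; filterByExpr, minimum count 10 and minimum total 15, TMM, robust glmQLFit, 2-sided glmQLFTest) was fitted over all 12 libraries with 4 group means on 18183 genes; Benjamini-Hochberg adjusted p under 0.05 is a call, and SE is the log2 fold change over the square root of F. The correction fits splines of length and GC content (5 degrees of freedom each) in each library. Counts of all 12 libraries were simulated from a single mean per gene over all groups, with 100 genes each changed 2-fold and 4-fold in control_IR. That gave 30 and 67 calls, plus 7 of unchanged genes, with 17454 genes tested. With the changes placed in sgRnf19a it gave 25 and 72, plus 5, with 17557 genes tested. The data held far more calls, 47.9% of genes with IR in control cells and 6.22% with the guide in untreated cells. The simulated figures therefore do not give the sensitivity of the tests reported here. The alternatives were DESeq2 1.42.0, other scaling factors, no filter, counts divided by 4, only the groups compared, a replicate block, limma 3.58.1 on log2(FPKM + 1) and log2(FPKM + 0.1) with a mean FPKM of at least 0.5 or no filter, and leaving out each library. Changes in log2(FPKM + pseudocount) understate those of low genes. The floor of 12 counts (taken as 3 read pairs over a group) covers counting error only, since PCR copies are not independent. The members, lists and tests were chosen with earlier results of these data known. All members may be named; values per library are given for Trp53, Cdkn1a, Mdm2 and the 4 called members with the largest change in each direction per comparison, and for other members where a result turns on them. In the further lists, 3 genes per comparison with the smallest p were eligible. No 2 libraries of a group were copies of each other. Promoter sequences are RefSeq's. Figures were drawn with matplotlib 3.10.9.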

Additional observations from a re-analysis of the deposited data

Results flagged for a closer look

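Of 49 tested genes of the further p53 targets list, 2, neither of them among the 39 genes, were called for the difference between the IR responses (edgeR). Of all genes, 0.544% were called higher and 0.137% lower. Leaving out 1 library gave 5 to 2624 genes called in all. For these 2 genes only the fit without sgRnf19a_IR 4 was read, at 2.20 for Sesn3 and 1.25 for Ccng2. Sesn3 differed by 2.5 on the log2 scale (adjusted p = 0.0154; 1.89 after correction, adjusted p = 0.00306), with a change of -2.30 in control cells. Ccng2 differed by 1.34 (adjusted p = 0.0415) and did not pass after correction (0.85, adjusted p = 0.0571).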

How the results depend on the processing

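DESeq2, its size factors in edgeR and counts divided by 4 kept every call of a member made in the 4 comparisons by edgeR on all libraries, while no filter lost 3 with IR in sgRnf19a cells and 1 with the guide in untreated cells. Upper-quartile factors lost 2 with IR in sgRnf19a cells, and moved the median of all genes with IR in control cells to 0.19. Depth limits Fas, Perp and Ddit4l. Under the length and GC correction these values, called in at least 1 of the 2 fits, changed sign: with IR in control cells Ptpn14 0.39, Gpx1 -0.12 and Dcxr -0.81, and with the guide in IR-treated cells Bbc3 0.73, Bax 0.68 and Sesn2 0.40. Members called in neither fit also changed sign: 2 each with IR in control and in sgRnf19a cells (Trp53 -0.18 and Xpc -0.08, Ccng1 0.26 and Zmat3 0.37), 3 and 4 with the guide, and 8 for the difference. Ppm1d with IR in sgRnf19a cells was the 1 called value to change sign on the FPKM scale (-0.01 in 3 settings: -0.005274 with a pseudocount of 1, with or without filter, and -0.006035 with 0.1), beside 7 uncalled ones with IR in control cells, Trp53 (-0.26) among them, 5 in sgRnf19a cells and 2 for the difference. Causes other than the correction's own were not tested.

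Members called higher with IR in control cells were 7 with unfiltered FPKM, and with IR in sgRnf19a cells 2 under each FPKM setting. Of all genes, 6.92% were called higher in the former, and 14.2% (pseudocount 1), 14.1% (0.1) and 6.06% (unfiltered) in the latter. Members called lower with IR in sgRnf19a cells were 3 with upper-quartile factors and with no filter, 0 with only the groups compared, 15 on FPKM with either pseudocount and 14 unfiltered. Of all genes, 14.5%, 10.4%, 10.9%, 49.5%, 48.7% and 23.1% were called lower in these settings, in that order (pseudocount 1 before 0.1). With the guide in untreated cells, higher calls were 12 with DESeq2 and with the correction, 13 with only the groups compared, 4 on log2(FPKM + 0.1) and 3 unfiltered; lower calls were 2 with DESeq2, counts divided by 4 and unfiltered FPKM; genes called in all were 1778, 1729 and 2825 with DESeq2, the correction and only the groups compared. In untreated cells, log2(FPKM + 0.1) called 2.8% of all genes higher with the guide and unfiltered FPKM 1.92%. With the guide in IR-treated cells, only the groups compared gave 10 members higher, 2 lower and 2797 genes in all, the correction 2 lower, and unfiltered FPKM 3414 genes. For the difference, DESeq2 gave 4 higher, 2 lower and 1695 genes in all, the correction 2 higher and 482 genes, and log2(FPKM + 0.1) 57 genes.

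Leaving out each library gave, for IR in control cells, 14 to 15 members higher, 11 to 12 lower and 7383 to 9733 genes; for IR in sgRnf19a cells 10 to 16, 1 to 8 (8 without sgRnf19a_IR 4) and 4722 to 8773; for the guide in untreated cells 3 to 11, 1 and 642 to 2116; for the guide in IR-treated cells 15 to 17, 2 (without control_IR 1 or 5) to 6 and 3877 (without control_IR 1) to 7612; and for the difference 0 to 10, 0 to 2 and 5 to 2624 (without sgRnf19a_IR 3). Same-numbered untreated libraries did not deviate together (correlations -0.157, -0.00962 and 0.0329), so their numbers were not taken as pairs. A replicate block on them gave 14 members higher and 2 lower of 37 (3262 genes), and with the correction 17 and 1 (3345 genes). No paired analysis was possible for the IR comparisons because the labels' replicate numbers match the numbers of the IR columns (1, 3, 4 and 1, 4, 5) only in part.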
